A study of Homo sapiens with 22 samples.

Results

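The genes described here are 10 immune checkpoint genes: CD274 (PD-L1), PDCD1LG2 (PD-L2), CD276, PVR, NECTIN2, TNFRSF14, LGALS9, CD47, NT5E and IDO1. They were taken by gene symbol, and all 10 were found among the 17400 to 59076 gene symbols of each of 4 tables. The RNA came from HN-6 cells, a human line from a squamous carcinoma of the head and neck, and was sequenced as stranded libraries of poly(A) RNA. All 22 libraries were from cells exposed to interferon-β at 1000 U/ml over the last 24 h, so every value is a level under interferon and there was no untreated baseline. SMYD3 encodes a lysine methyltransferase. It was removed or depleted by 3 means, each with its own control: a knockout line labelled 5-3 against parental HN-6 (3 libraries each), the siRNA si1SMYD3 against the negative control siRNA siNC (3 each), and the antisense oligonucleotide (ASO) ASO081 against phosphate-buffered saline, PBS (2 each). In the fourth comparison UHRF1, a protein that helps to maintain DNA methylation, was depleted with siUHRF1 against its own siNC libraries (3 each). Transfection or ASO exposure lasted 72 h. The knockout is represented by 1 line and each knockdown by 1 reagent, and PBS is a vehicle rather than a control oligonucleotide. For the libraries of the SMYD3 siRNA table the treatment label names the siRNA alone, and the interferon exposure is taken from the treatment protocol and design text. The study asks whether SMYD3 holds down the interferon response of these cells, and the comparisons here show how the genes that restrain lymphocytes and macrophages stood in the same libraries.

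Checkpoint ligands are surface proteins by which a cell restrains immune cells that touch it. PD-L1 and PD-L2 engage PD-1 on T cells, PVR and NECTIN2 are nectin family proteins bound by TIGIT and by the activating receptor CD226, TNFRSF14 (HVEM) binds BTLA and CD160, galectin-9, the product of LGALS9, binds TIM-3, and CD47 signals to SIRPα on macrophages. CD276 (B7-H3) is a B7 family protein whose receptor is not settled. The last pair of genes encode enzymes: NT5E (CD73) converts extracellular AMP to adenosine, and IDO1 starts the breakdown of tryptophan to kynurenine. CD274 and IDO1 are well known targets of interferon signalling through STAT and IRF factors, and in squamous carcinoma cells PD-L1 is also raised by growth factor and NF-kB signalling.

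Sequence upstream of the transcription start was given by RefSeq (GRCh38.p14) for 8 of the 10 genes, all but PDCD1LG2 and IDO1. The 250 bases before the start were searched on both strands for an interferon-stimulated response element (ISRE, read as GAAA, any 2 bases and GAAA), a STAT site (GAS, TTCNNNGAA), an AP-1 site (TGANTCA) and an E2F site (TTTGGCGC). Of all 35116 promoters in that set, 3.02% held the ISRE letters, 6.57% the GAS letters, 6.57% the AP-1 letters and 0.55% the E2F letters. Only CD274 of the 8 genes held any of them. Its ISRE letters occurred 2 times on the minus strand in overlapping matches, from -208 to -199 and from -202 to -193 relative to the start, and its GAS letters 1 time, from -125 to -117. NECTIN2 and LGALS9, each called higher in 3 comparisons, were among the genes without a match. Whether the letters bear on the fold changes was not tested. The parts of 3 windows that no annotated exon covers are shown as examples, CD274 with the letters and 2 ligands without. Capitals mark the ISRE and GAS letters, and all 3 parts read 5′ to 3′ along the gene's strand.
CD274, chr9:5450292-5450502, plus strand: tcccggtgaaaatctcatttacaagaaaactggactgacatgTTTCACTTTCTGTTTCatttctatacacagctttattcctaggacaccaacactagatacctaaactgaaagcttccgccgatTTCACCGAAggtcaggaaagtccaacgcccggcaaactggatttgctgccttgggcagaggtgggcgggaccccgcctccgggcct
PVR, chr19:44643660-44643797, plus strand: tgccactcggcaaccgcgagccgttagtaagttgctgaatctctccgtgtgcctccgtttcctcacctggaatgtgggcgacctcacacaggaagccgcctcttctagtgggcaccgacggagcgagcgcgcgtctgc
CD47, chr3:108091032-108091281, minus strand: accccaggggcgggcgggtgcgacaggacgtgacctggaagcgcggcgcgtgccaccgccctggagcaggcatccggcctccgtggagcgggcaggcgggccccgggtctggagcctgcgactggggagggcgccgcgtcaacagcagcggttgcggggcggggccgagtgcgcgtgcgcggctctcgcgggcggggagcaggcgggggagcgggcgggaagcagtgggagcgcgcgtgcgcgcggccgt
The promoters also differed in CpG, the dinucleotide that DNA methylation marks. CD47 held 39 CpG in its 250 bases, more than 97.35% of promoters, CD274 held 16, and LGALS9 held 1, where the median promoter held 11. The windows of LGALS9, NT5E and TNFRSF14 lie inside the gene spans given below and wholly in GENCODE exons. Those of CD47 and CD276 also lie inside their spans, with 0 and 170 of the 250 bases in exons. For all of these genes the letters are not those before the first annotated start. These are counts of letters, and no methylation was measured in these libraries.

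Values of the knockout table are deposited normalized counts (gene counts divided by 1 factor per library), and values of the other tables are CPM, read counts per library total with the total scaled by TMM factors. A gene is called when its adjusted p is under 0.05 over all genes tested, by limma in the knockout table and by edgeR's quasi-likelihood test in the others, both with Benjamini-Hochberg adjustment. Errors of log2 fold changes are standard errors (SE) of these fits, and a fold change is always treated minus control. SMYD3 RNA was lower in every treated than in every control library of its 3 comparisons: from a mean of 322 to 93.6 normalized counts in the knockout line, from 15.1 to 2.85 CPM with the siRNA and from 21.5 to 3.73 CPM with the ASO. UHRF1 fell from 64.5 to 2.22 CPM with its own siRNA, and it also fell with the SMYD3 siRNA (-1.68 ± 0.14). It rose by 0.44 ± 0.03 in the knockout line and by 0.36 ± 0.06 with the ASO. SMYD3 RNA in turn fell with the UHRF1 siRNA, from 12.5 to 8.40 CPM (-0.57 ± 0.09, adjusted p = 3.32e-07, edgeR), with no overlap between groups. The libraries of the 4 tables held between 24783605 and 62921144 reads in genes. The squamous markers were all tested in each table, with KRT5 at 142 to 356 CPM and KRT14 under 1 CPM in the control means of the 3 CPM tables. Leukocyte markers summed to at most 17.1 CPM in any library of those tables, with CD3E and CD163 at 0 reads in the ASO and UHRF1 siRNA tables. In the knockout table they summed to 43.8 to 46.5 CPM in parental and 307 to 323 CPM in knockout libraries, most of it CD68, a lysosomal protein of macrophages and many other cells, whose group means in the CPM tables were at most 1.37 CPM. Of 4 leukocyte markers tested there, CD68 was higher, and CD8A (-3.90), CD14 (-2.92) and LYZ (-2.11) were lower. Fibroblast markers summed to 59.0 to 63.3 CPM in parental and 15.8 to 17.8 CPM in knockout libraries. Their sums were 135 to 158 CPM against 221 to 263 CPM with the SMYD3 siRNA, and 119 to 121 against 94.8 to 112 with the ASO. With the UHRF1 siRNA they were 119 to 120 CPM against 504 to 578 CPM. Endothelial markers summed to at most 23.8 CPM in any library, reached with the UHRF1 siRNA. The part of these genes in the results below was not tested. How reads were counted in each table is not given in the sources used here, and its part in the CD68 levels was not tested.

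These are bulk libraries, so less RNA per cell and fewer cells with the RNA cannot be told apart. The 10 genes did not move as one group. In the knockout line 9 were higher and 1 was lower, with a median log2 fold change of 1.37 against -0.02 for all genes tested. In that comparison 84.6% of 16950 genes were called, 42.1% higher and 42.5% lower, so a call by itself was the usual result there. The groups did not overlap for any of the 10, as for 85.8% of all genes. An edgeR fit on the recovered reads with TMM factors called 7011 higher and 7471 lower, close to the 7136 and 7211 of limma on the deposited values. The same fit with upper quartile factors, the alternative meant by that name for the knockout line below, shifted all genes by a median of -0.28 from the limma values and called 5386 higher and 9117 lower, with 8 of the 10 checkpoint genes higher. Mitochondrial genes took 14.9% to 15.7% of the reads in parental and 4.82% to 4.88% in knockout libraries, and without them (edgeR on recovered reads) 9 of the 10 were again higher and 1 lower. The SMYD3 siRNA gave 3 higher, 3 lower and 4 not called, where 48.6% of all genes were called, 24.2% higher and 24.4% lower. The groups of 6 of the 10 did not overlap, against 56.8% of all genes. With the ASO 7 were higher and none of the 10 lower, with a median of 0.42, where 21.7% of all genes were called, 11.3% higher and 10.3% lower. The groups of 8 did not overlap, against 61.7% of all genes. The UHRF1 siRNA gave 6 higher and 4 lower, where 64.7% of all genes were called, 32% higher and 32.7% lower. None of the 10 had overlapping groups, as for 68.1% of all genes.

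**Figure D1:**
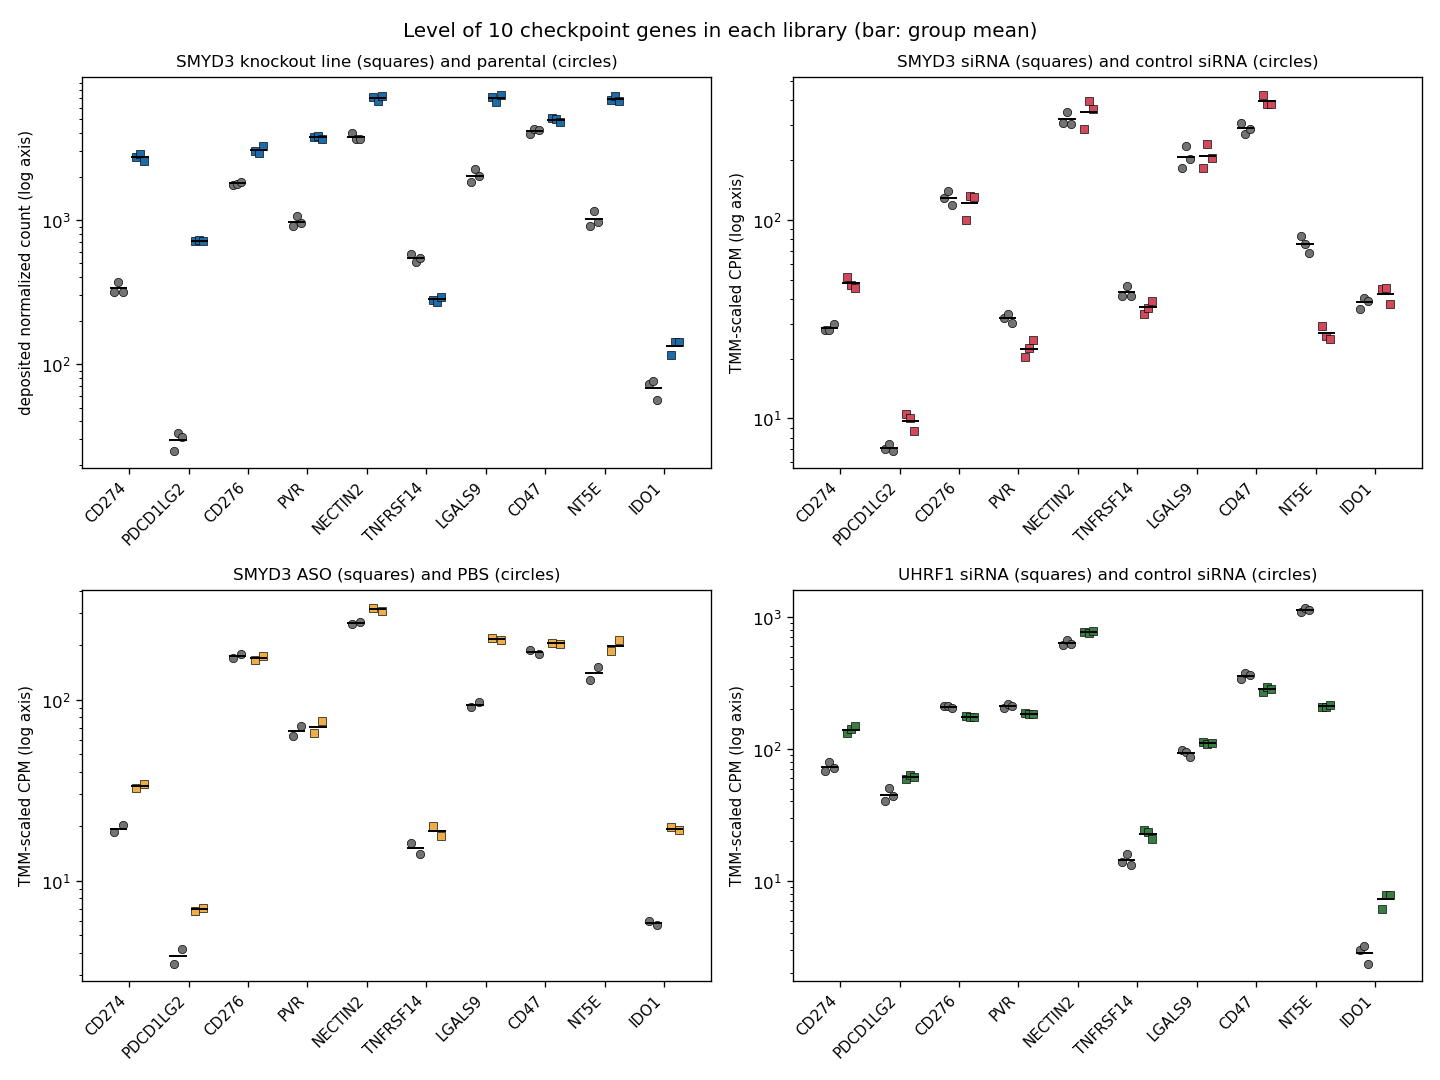
Level of the 10 genes in each library, on a log axis, as deposited normalized counts for the knockout table and as TMM-scaled CPM for the others. Circles are control and squares treated libraries, and bars are group means. CD274 squares lie above its circles in all 4 panels, and NT5E squares lie above them in 2 panels and below in 2.

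Only CD274 and PDCD1LG2 were called higher in all 3 SMYD3 comparisons, as were 3.42% of the 13019 genes tested in all 3 tables. Both were also higher with the UHRF1 siRNA, with which SMYD3 RNA fell too. None of the 10 was called lower in all 3 SMYD3 comparisons (2.05% of genes were). NT5E, PVR and TNFRSF14 were called in opposite directions among the 3 SMYD3 comparisons, as were 25.6% of genes. Adding the UHRF1 siRNA, 5 of the 10 were called in both directions, the other 2 being CD276 and CD47.

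**Figure D2:**
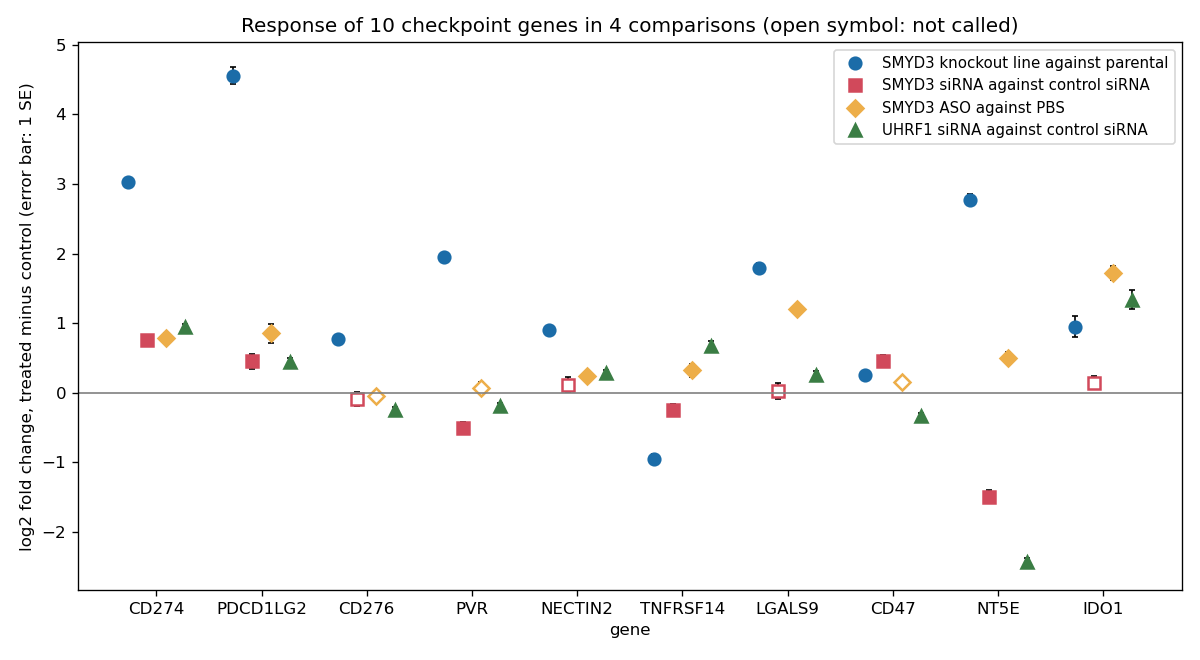
Log2 fold change of each gene in the 4 comparisons, with error bars of 1 SE and open symbols where the gene was not called. The points of CD274 run from 0.75 to 3.02, all above 0, whereas those of NT5E run from -2.42 to 2.77.

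CD274, the gene of PD-L1, stood at 316, 373 and 319 normalized counts in the parental libraries and at 2747, 2887 and 2558 in the knockout libraries. In the SMYD3 siRNA table it went from 27.8, 27.8 and 29.8 CPM in the controls to 51.6, 47.0 and 45.2 CPM. In these 2 comparisons every treated library lay above every control. With the ASO its values were 18.6 and 20.2 CPM against 32.5 and 34.4 CPM, and with the UHRF1 siRNA 67.8, 79.4 and 71.5 CPM against 131, 140.2 and 147.9 CPM. Here too the groups did not overlap. The log2 fold change was 3.02 ± 0.07 in the knockout line (adjusted p = 9.52e-15, limma), 0.75 ± 0.08 with the SMYD3 siRNA (adjusted p = 2.80e-06, edgeR), 0.78 ± 0.07 with the ASO (adjusted p = 1.27e-05, edgeR) and 0.94 ± 0.05 with the UHRF1 siRNA (adjusted p = 8.06e-21, edgeR). Among the 3 knockdowns no difference passed the test with all libraries. The CD274 changes with the SMYD3 siRNA and with the ASO differed by -0.03, with a 95% interval from -0.27 to 0.21 (adjusted p = 0.888, edgeR contrast), the SMYD3 siRNA and UHRF1 siRNA ones by -0.19, from -0.38 to 0.01 (adjusted p = 0.119), and the ASO and UHRF1 siRNA ones by -0.15, from -0.39 to 0.08 (adjusted p = 0.300). The difference between the siRNAs was called without UHRF1 siRNA control replicate 2 (-0.25, adjusted p = 0.0386), without SMYD3 siRNA replicate 1 (-0.24, adjusted p = 0.0352) and with upper quartile factors (-0.24, adjusted p = 0.0432). The rise in the knockout line was larger than that with the siRNA by 2.09 (1.89 to 2.30) and than that with the ASO by 2.08 (1.85 to 2.31), both on log2(CPM + 1), a scale that understates the change of low genes (limma contrast, adjusted p = 8.77e-17 and 3.03e-15).

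PDCD1LG2, the gene of PD-L2, was the lowest of the 10 per kilobase of exon in parental cells and had the largest rise of the 10 in the knockout line. Its parental libraries held 25.1, 33.4 and 31.3 normalized counts and its knockout libraries 714, 731 and 717, a change of 4.55 ± 0.12 (adjusted p = 4.37e-14, limma). The rise with the SMYD3 siRNA was smaller, from 7.01, 7.41 and 6.89 to 10.5, 10.0 and 8.66 CPM, 0.45 ± 0.10 (adjusted p = 0.00222, edgeR). With the ASO the gene went from 3.48 and 4.19 to 6.82 and 7.07 CPM, 0.85 ± 0.14 (adjusted p = 9.39e-04). Under UHRF1 siRNA the values were 40.6, 50.2 and 44.1 against 59.1, 63.0 and 61.4 CPM, 0.44 ± 0.06 (adjusted p = 5.56e-09). The control and treated libraries did not overlap in any of the 4 comparisons. The siRNA and ASO changes differed by -0.40, with an interval from -0.75 to -0.05 that did not pass after adjustment (adjusted p = 0.0729). It passed without SMYD3 siRNA replicate 1 (-0.46, adjusted p = 0.0393) and without PBS replicate 2 (-0.54, adjusted p = 0.0493).

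CD274 and PDCD1LG2 lie next to each other on chromosome 9 (GRCh38, from 5450503 to 5470566 and from 5510570 to 5571254, both on the plus strand), with starts 60.1 kb apart. Of 20 other protein-coding genes that start within 1 Mb of CD274, 15 were tested. In the knockout line 11 of the 15 were higher and 2 lower, with values from -1.22 to 2.14 and a median of 0.53, which was also the median of all chromosome 9 genes tested. Of all chromosome 9 genes tested, 64.4% were called higher in the knockout line. The other autosomes and X ran from 32.4% (chromosome 14) to 54.8% (chromosome 3). The share over all genes, 42.1%, also covers genes with no matched position. The PD-1 ligands stood above the chromosome 9 median by 2.49 (CD274) and 4.02 (PDCD1LG2). RCL1, a ribosome biogenesis factor, had the highest value of the other 15 at 2.14 ± 0.07, PLGRKT, a plasminogen receptor and the nearest tested gene on the left, had 1.22 ± 0.09, and RIC1, the nearest on the right, had 0.86 ± 0.06. JAK2, the kinase of the interferon-γ receptor, lies 466 kb before CD274 and rose by 0.51 ± 0.08 in the knockout line, by 0.56 ± 0.09 with the SMYD3 siRNA and by 0.68 ± 0.08 with the UHRF1 siRNA, and stood at 0.22 ± 0.09 with the ASO (not called, adjusted p = 0.112). With the ASO none of the 15 was called higher and 1 was lower, with a highest value of 0.26, below the 0.78 and 0.85 of the PD-1 ligands. In the SMYD3 siRNA comparison 6 were higher and 5 lower with a highest value of 0.78. With the UHRF1 siRNA 6 were higher and 3 lower with a highest value of 1.13. So CD274 did not stand above all its neighbours with either siRNA. Of chromosome 9 genes tested, 24.8% were called higher with the SMYD3 siRNA, 9.59% with the ASO and 31.2% with the UHRF1 siRNA.

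**Figure D3:**
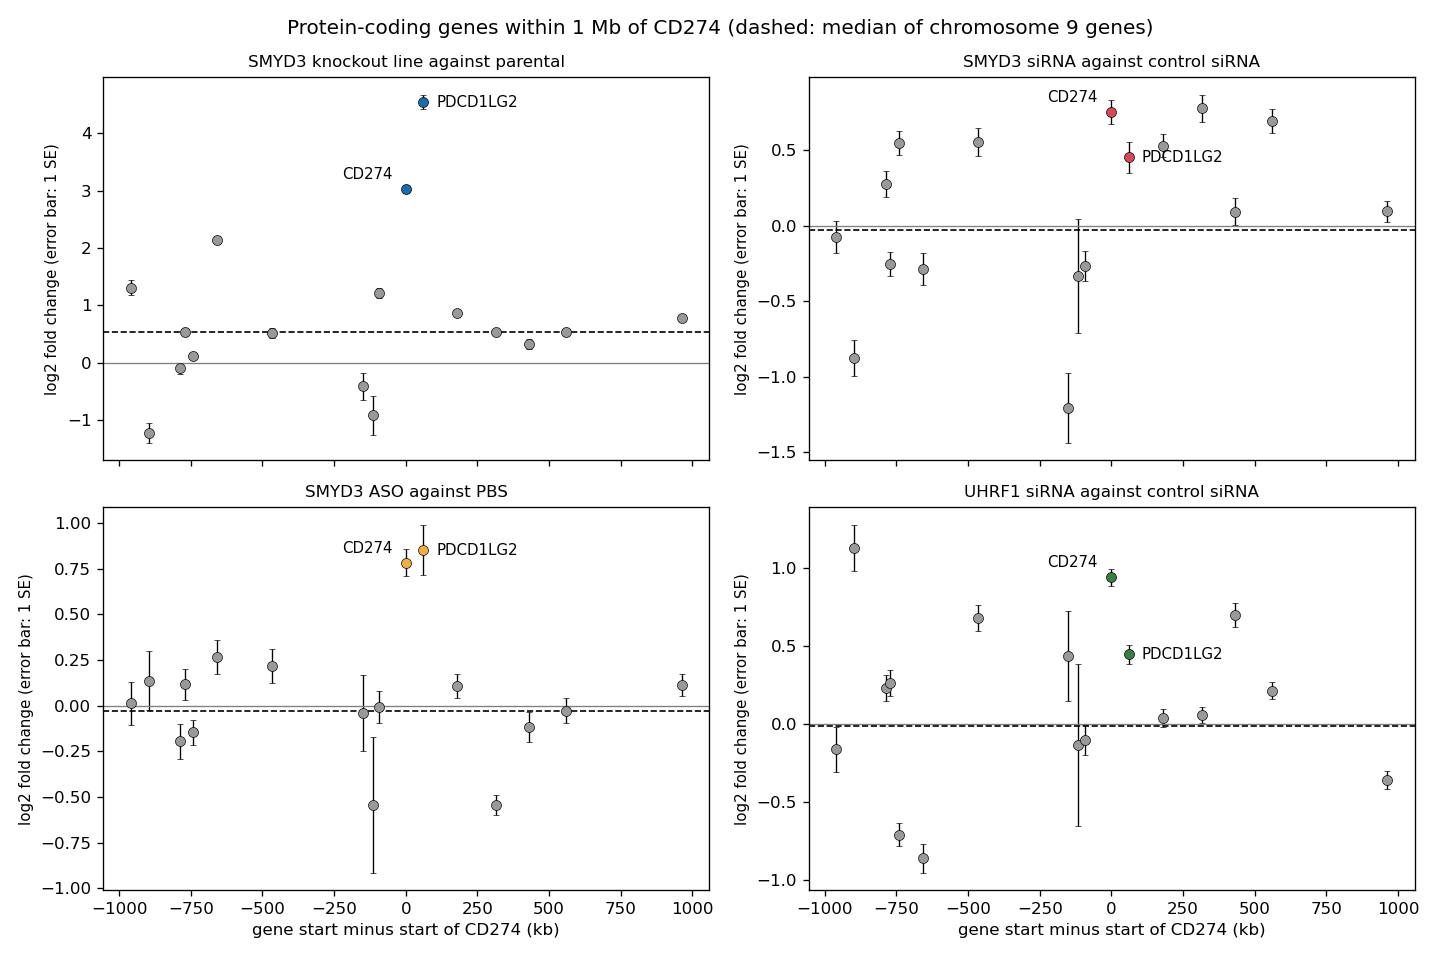
Log2 fold change (error bar 1 SE) of tested protein-coding genes against the distance of their start from that of CD274, in kb, in the 4 comparisons. The dashed line is the median of chromosome 9 genes, 0.53 in the knockout line and between -0.03 and -0.02 in the others. The 2 coloured points are CD274 and PDCD1LG2.

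CD274 and IDO1 are transcribed in response to a small set of signalling genes. Of 17 receptor, kinase and transcription factor genes, 14 were higher and 3 lower in the knockout line, 11 and 0 with the SMYD3 siRNA, 8 and 0 with the ASO, and 14 and 2 with the UHRF1 siRNA. Over all genes tested, 42.1% were higher and 42.5% lower in the knockout line, and 24.2% and 24.4% with the SMYD3 siRNA. The shares were 11.3% and 10.3% with the ASO, and 32% and 32.7% with the UHRF1 siRNA. IRF1, which binds ISRE sequences, rose by 0.44 to 0.78 over the 4 comparisons. NFKB1, a subunit of NF-kB, rose by 2.31 ± 0.05 in the knockout line, 0.98 ± 0.09 with the SMYD3 siRNA and 0.26 ± 0.07 with the ASO, and stood at -0.09 ± 0.05 with the UHRF1 siRNA (adjusted p = 0.118). MYC rose by 2.27 ± 0.04 in the knockout line and fell by 0.24 ± 0.05 with the UHRF1 siRNA. Genes that act on PD-L1 protein after transcription moved both ways: of 13, 9 were higher and 3 lower in the knockout line (6 and 5 with upper quartile factors), 3 and 4 with the SMYD3 siRNA, 4 and 4 with the ASO, and 4 and 5 with the UHRF1 siRNA. CMTM4, which keeps PD-L1 from degradation, fell by 0.55 ± 0.08, 0.52 ± 0.07 and 0.45 ± 0.06 in the 3 knockdowns and stood at -0.10 ± 0.06 in the knockout line (adjusted p = 0.130).

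Across the 22 libraries, with each gene centred and scaled within its table, the 5 genes whose pattern was most like that of CD274 among 11636 were CXCL11, RSAD2, HERC6, AIM2 and TNFSF10, with Pearson r from 0.988 to 0.992. All 5 are known as interferon-induced genes. PDCD1LG2 came 52nd with r = 0.960, IDO1 had r = 0.757, and NT5E had r = -0.09. Each table holds 1 treated and 1 control group, so this r mostly reflects how a gene's groups differed in the 4 tables, and it is given as a description.

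CD276 (B7-H3, chromosome 15 from 73683966 to 73714518) was called higher in the knockout line alone, at 1759, 1791 and 1848 against 3015, 2913 and 3265 normalized counts, a change of 0.77 ± 0.05 (adjusted p = 7.01e-10, limma). That change exceeded the one with the SMYD3 siRNA by 0.76, with the ASO by 0.71 and with the UHRF1 siRNA by 0.88 (limma contrasts on log2(CPM + 1), adjusted p = 9.35e-08, 2.57e-06 and 5.44e-09). Depletion of UHRF1 took it from 211.4, 210.8 and 202.9 to 177.9, 173.4 and 174.9 CPM, lower by 0.25 ± 0.05 (adjusted p = 9.07e-06, edgeR). In both the groups stood apart. The SMYD3 siRNA libraries overlapped their controls (119 to 139.6 CPM in controls, 100.3 to 132 CPM treated) and the change was -0.10 ± 0.10 (adjusted p = 0.460). With the ASO they overlapped too, at 170.8 and 179.5 against 165.9 and 174.3 CPM, with a change of -0.04 ± 0.06 (adjusted p = 0.643).

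The other B7 and butyrophilin genes gave no common direction. Of 10 tested in the knockout line 2 were higher and 6 lower, of 13 with the SMYD3 siRNA 2 and 2, of 9 with the ASO 1 and 1, and of 10 with the UHRF1 siRNA 7 and 0. Among all genes tested, 84.6%, 48.6%, 21.7% and 64.7% were called in the same order of comparisons. VTCN1 (B7-H4), an inhibitory ligand, fell by 3.16 ± 0.19 in the knockout line, from 290 to 32.5 normalized counts. It rose by 2.35 ± 0.15 with the UHRF1 siRNA, from 1.25 to 6.38 CPM. NCR3LG1 (B7-H6), a ligand of the NK cell receptor NKp30, rose by 2.87 ± 0.21 in the knockout line and by 0.69 ± 0.18 with the SMYD3 siRNA.

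PVR and NECTIN2, both on chromosome 19 (from 44643798 to 44663583 and from 44846175 to 44889228), encode ligands with shared receptors. PVR held 904, 1061 and 956 normalized counts in parental and 3772, 3863 and 3679 in knockout libraries, a rise of 1.95 ± 0.06 (adjusted p = 7.64e-14, limma). Under the SMYD3 siRNA it went from 31.9, 33.7 and 30.3 to 20.3, 22.5 and 24.7 CPM, a fall of 0.51 ± 0.09 (adjusted p = 2.50e-04, edgeR). So every knockout library was high and every siRNA library low against its own controls. The ASO libraries overlapped their controls (65.1 and 76.1 against 62.6 and 71.6 CPM, 0.07 ± 0.08, adjusted p = 0.562). In the UHRF1 siRNA table PVR went from 204.9, 217.6 and 209.9 to 186, 182 and 184 CPM, lower by 0.19 ± 0.05 (adjusted p = 3.64e-04). The siRNA and ASO changes of PVR differed by -0.58 (95% interval -0.81 to -0.34, adjusted p = 2.39e-04, edgeR contrast). PVR overlaps CEACAM19 on the same strand and 2 RNA genes on the other, and how the authors' counting treated overlaps and strand is not given in the sources used here.

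NECTIN2 rose from 4005, 3667 and 3660 to 7134, 6743 and 7300 normalized counts in the knockout line, 0.90 ± 0.04 (adjusted p = 3.66e-11, limma). Under UHRF1 siRNA it rose from 612, 662 and 622 to 768, 758 and 777 CPM, 0.28 ± 0.05 (adjusted p = 1.38e-06, edgeR). Neither comparison had overlapping libraries. With the ASO it went from 261 and 269 to 321 and 309 CPM, 0.25 ± 0.06 (adjusted p = 0.00760), a call lost without PBS replicate 1 (0.23, adjusted p = 0.0570). In the SMYD3 siRNA table the groups overlapped, at 305 to 349 CPM in controls and 285 to 397 CPM treated, and the change was 0.12 ± 0.11 (adjusted p = 0.394). Treated replicate 1 was the low library, and without it NECTIN2 was called higher by 0.26 (adjusted p = 0.0154). An antisense gene, AC011481.2, overlaps NECTIN2. Of the other nectins, NECTIN1, an adhesion molecule of epithelia, rose by 1.03 ± 0.09 with the SMYD3 siRNA and fell by 1.62 ± 0.06 with the UHRF1 siRNA and by 0.28 ± 0.06 with the ASO. NECTIN4 went from 10.8 to 80.5 CPM with the UHRF1 siRNA, a rise of 2.90 ± 0.11.

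TNFRSF14 (HVEM, chromosome 1 from 2555639 to 2565382) was the only one of the 10 called lower in the knockout line. It stood at 578, 513 and 542 normalized counts in parental and 280.5, 272 and 292 in knockout libraries, a fall of 0.95 ± 0.07 (adjusted p = 1.19e-08, limma). It went the other way with the UHRF1 siRNA, from 13.9, 16 and 13.3 to 24.4, 23.3 and 20.8 CPM, a rise of 0.67 ± 0.08 (adjusted p = 1.10e-10, edgeR). Groups did not overlap in either. The knockdowns of SMYD3 gave small changes. With the siRNA it went from 41.1, 46.7 and 41.6 to 33.5, 36.2 and 39.1 CPM, -0.25 ± 0.08 (adjusted p = 0.0236). That call was lost without control replicate 2 (-0.19, adjusted p = 0.131), treated replicate 1 (-0.18, 0.0771) or treated replicate 2 (-0.24, 0.0669). With the ASO it went from 16.1 and 14.1 to 19.99 and 17.7 CPM, 0.32 ± 0.09 (adjusted p = 0.0274), and lost the call without ASO replicate 1 (0.24, adjusted p = 0.0973), without PBS replicate 2 (0.24, 0.139) or with DESeq2 (0.33, 0.0927). The siRNA and ASO changes differed by -0.57, from -0.86 to -0.28 (adjusted p = 0.00197, edgeR contrast). An antisense gene, TNFRSF14-AS1, overlaps it.

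The partner of TNFRSF14 in the tumour necrosis factor family is TNFSF14 (LIGHT), which also binds LTBR. TNFSF14 went from 4.47 to 34.8 CPM with the SMYD3 siRNA, a rise of 2.94 ± 0.11, and fell by 1.64 ± 0.22 in the knockout line (57.3 to 17.7 normalized counts) and by 0.79 ± 0.17 with the UHRF1 siRNA. With the ASO its means were 1.06 CPM in controls and 1.39 CPM treated (0.39 ± 0.26, adjusted p = 0.313). LTBR fell by 0.64 ± 0.08 with the SMYD3 siRNA and by 0.14 ± 0.05 with the UHRF1 siRNA.

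LGALS9 (chromosome 17 from 27629798 to 27649560) rose in the knockout line from 1826, 2259 and 2021 to 7124, 6633 and 7394 normalized counts, 1.80 ± 0.07 (adjusted p = 7.69e-10, limma). With the ASO it rose from 90.5 and 97.0 to 220.3 and 213 CPM, 1.21 ± 0.06 (adjusted p = 2.30e-08, edgeR). The rise was small with the UHRF1 siRNA, from 97.6, 94.6 and 86.3 to 113.6, 108.9 and 110.2 CPM, 0.26 ± 0.05 (adjusted p = 1.75e-05). The groups were separate in these 3 comparisons. The SMYD3 siRNA libraries overlapped their controls throughout (182 to 242 against 182 to 235 CPM), with a change of 0.03 ± 0.11 (adjusted p = 0.864), which differed from the ASO change by -1.18 (95% interval -1.47 to -0.89, adjusted p = 3.64e-07, edgeR contrast). LGALS9 overlaps AC015688.4, an annotated protein-coding gene on the same strand. LGALS9B and LGALS9C are near-identical copies, and reads could be split among them. They rose by 0.65 ± 0.13 and 1.13 ± 0.16 in the knockout line and by 0.74 ± 0.13 and 0.78 ± 0.17 with the ASO, and fell by 0.89 ± 0.16 and 0.85 ± 0.23 with the UHRF1 siRNA, where LGALS9 rose. At 1.06 to 6.68 CPM in group means of the CPM tables they stood far below LGALS9. Among the other galectins LGALS1 fell by 1.16 ± 0.13 with the SMYD3 siRNA and by 0.67 ± 0.05 with the UHRF1 siRNA, and LGALS3 fell by 1.10 ± 0.05 in the knockout line.

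CD47, the signal that restrains phagocytosis (chromosome 3 from 108043094 to 108091862, minus strand), had no log2 fold change above 0.46 in size. With the SMYD3 siRNA it rose from 308, 272 and 287 to 425, 385 and 384 CPM, 0.46 ± 0.08 (adjusted p = 3.20e-04, edgeR). In the UHRF1 siRNA table it fell from 340.1, 374 and 361 to 268, 296 and 286 CPM, by 0.34 ± 0.05 (adjusted p = 4.25e-08). Both pairs of groups were separate, in opposite directions, and the difference between the changes was 0.80 (0.62 to 0.99, adjusted p = 1.26e-08, edgeR contrast). In the knockout line CD47 stood at 3989, 4298 and 4198 against 5078, 5047 and 4779 normalized counts, 0.26 ± 0.04 (adjusted p = 3.06e-05, limma), but with upper quartile factors the value was -0.02 (adjusted p = 0.579), so its direction there turned with the scaling. With the ASO it stood at 188 and 179 against 205 and 204 CPM, 0.15 ± 0.06 (adjusted p = 0.0658), and was called without the filter on low counts (adjusted p = 0.0462). THBS1, a secreted ligand of CD47, rose by 3.06 ± 0.03 in the knockout line and by 0.70 ± 0.11 with the SMYD3 siRNA and fell by 0.32 ± 0.05 with the UHRF1 siRNA. QPCTL, the enzyme that modifies CD47 so that SIRPα can bind, fell by 0.88 ± 0.06 with the UHRF1 siRNA, by 0.37 ± 0.08 in the knockout line and by 0.35 ± 0.08 with the ASO. CD24, another such signal to macrophages, fell by 0.60 ± 0.11 with the SMYD3 siRNA and by 0.30 ± 0.03 in the knockout line, and rose by 0.57 ± 0.05 with the UHRF1 siRNA.

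NT5E (CD73, chromosome 6 from 85449584 to 85495791) had the widest spread of responses of the 10. In the knockout line it rose from 917, 1163 and 968 to 6823, 7229 and 6697 normalized counts, 2.77 ± 0.08 (adjusted p = 4.98e-11, limma). With the SMYD3 siRNA it fell from 82.8, 75.3 and 68.0 to 29.3, 26.1 and 25.0 CPM, by 1.49 ± 0.09 (adjusted p = 2.11e-08, edgeR). These are opposite directions after depletion of the same gene, with no overlap between groups in either. With the ASO it rose from 128 and 151 to 185 and 213 CPM, 0.51 ± 0.08 (adjusted p = 0.00115). With the UHRF1 siRNA it fell from 1086, 1165 and 1134 to 207, 208 and 216 CPM, by 2.42 ± 0.05 (adjusted p = 9.87e-41). NT5E was thus lower with both siRNAs and higher in the knockout line and with the ASO. The siRNA change differed from the ASO change by -2.00 (-2.25 to -1.74, adjusted p = 1.11e-12, edgeR contrast) and the knockout change was above the siRNA change by 4.10 (3.87 to 4.32, adjusted p = 4.52e-22, limma contrast on log2(CPM + 1)). UHRF1 RNA itself moved in the same direction as NT5E in each of the 4 comparisons, with -1.68 ± 0.14 for the SMYD3 siRNA, 0.36 ± 0.06 for the ASO, 0.44 ± 0.03 for the knockout line and -4.85 ± 0.09 for the UHRF1 siRNA. Its part in the NT5E values was not tested.

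The 5 genes most like NT5E over the 22 libraries were NETO2, RPA2, CHAF1B, NLE1 and GINS2, with r from 0.991 to 0.995. RPA2, CHAF1B and GINS2 are parts of the DNA replication machinery and of chromatin assembly behind the fork. PVR had r = 0.889 with NT5E. The other genes that make, clear or sense extracellular adenosine moved in both directions: 4 of 12 tested were higher and 4 lower in the knockout line (4 and 7 with upper quartile factors), 5 and 5 of 15 with the SMYD3 siRNA, 1 and 1 of 14 with the ASO, and 4 and 8 of 13 with the UHRF1 siRNA. Among all genes tested, 84.6%, 48.6%, 21.7% and 64.7% were called in the same order of comparisons. SLC29A1, the main nucleoside transporter, rose by 2.13 ± 0.06 in the knockout line and fell by 2.44 ± 0.06 with the UHRF1 siRNA. ADORA2B, an adenosine receptor, had the sign of NT5E in each comparison: 0.72 ± 0.05 in the knockout line, -0.93 ± 0.09 with the SMYD3 siRNA, 0.19 ± 0.06 with the ASO and -2.34 ± 0.06 with the UHRF1 siRNA. ENPP1, which makes AMP from ATP, fell by 2.54 ± 0.36 in the knockout line, changed by -1.82 ± 0.16 with the UHRF1 siRNA, fell by 0.48 ± 0.11 with the ASO, and rose by 0.49 ± 0.15 with the SMYD3 siRNA.

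**Figure D4:**
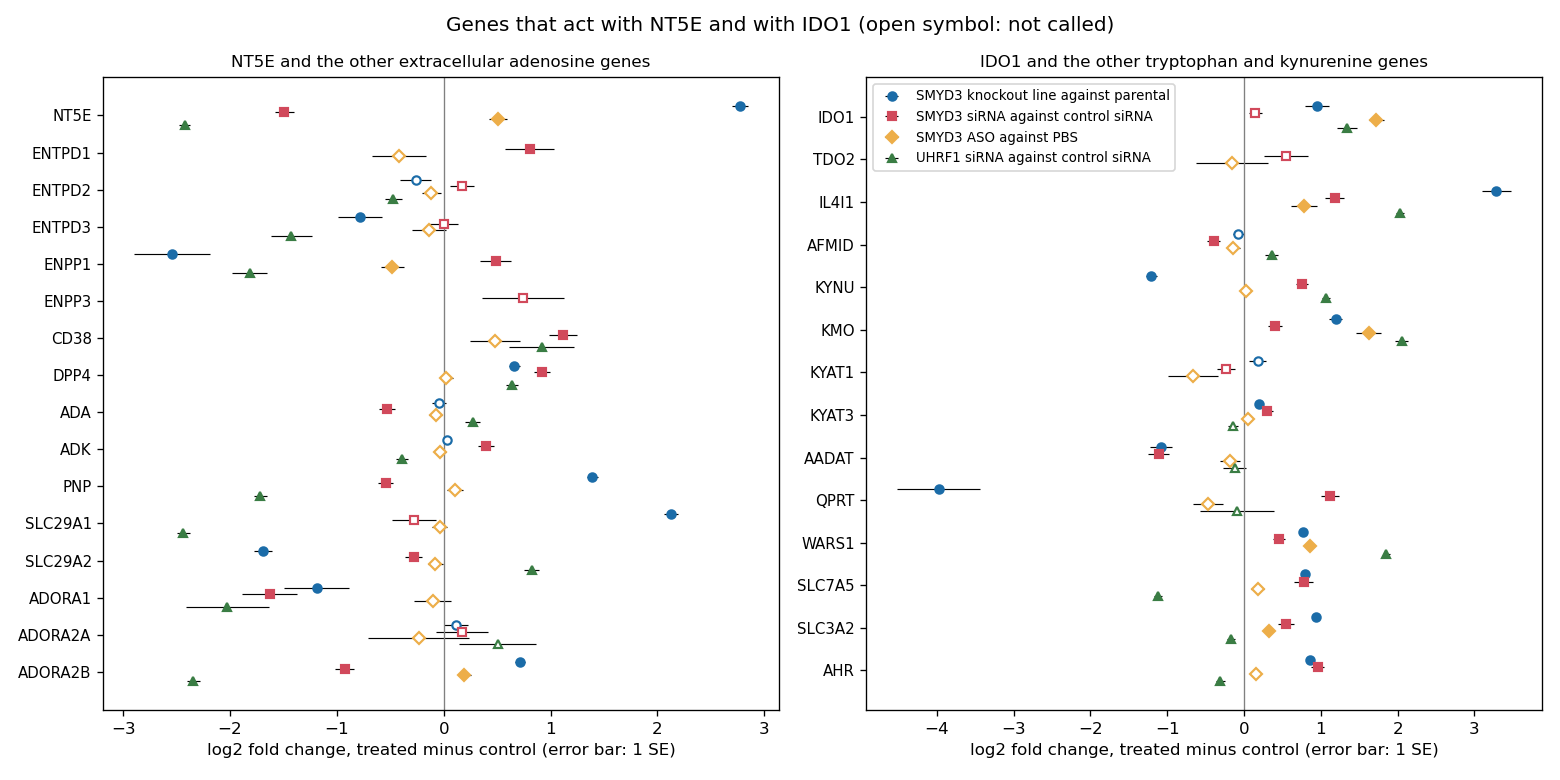
Log2 fold change (error bar 1 SE) in the 4 comparisons of NT5E with the other extracellular adenosine genes (left) and of IDO1 with the other tryptophan and kynurenine genes (right), open symbols marking genes not called. NT5E and ADORA2B spread to both sides of 0, whereas every point of IL4I1, KMO and WARS1 lies above 0.

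IDO1 (chromosome 8 from 39902275 to 39928444) had its highest fold change with the ASO, from 6.03 and 5.70 to 19.7 and 19.0 CPM, 1.72 ± 0.10 (adjusted p = 9.15e-08, edgeR). With the UHRF1 siRNA it rose from 3.02, 3.20 and 2.36 to 6.08, 7.86 and 7.80 CPM, 1.34 ± 0.13 (adjusted p = 5.98e-13). In the knockout line it rose from 72.8, 76.6 and 56.7 to 115, 142 and 142 normalized counts, 0.95 ± 0.15 (adjusted p = 3.84e-05, limma). Every treated library was above every control in these 3. With the SMYD3 siRNA the groups overlapped, at 35.7, 40.6 and 38.8 against 44.8, 45.1 and 37.6 CPM, and the change was 0.15 ± 0.09 (adjusted p = 0.184). IDO1 was already at 38.4 CPM in the controls of that table, against 2.86 and 5.86 CPM in the controls of the other CPM tables. The siRNA and ASO changes differed by -1.58 (-1.92 to -1.24, adjusted p = 1.64e-08, edgeR contrast), and the knockout change was below the ASO change by 0.89 on log2(CPM + 1) (interval of knockout minus ASO -1.23 to -0.55, adjusted p = 2.42e-05). This scale understates a change more where levels are lower, and IDO1 was lower in parental cells (RPKM 0.682) than with PBS (1.84). The fitted changes, 0.95 and 1.72, lay closer together than the contrast. The ASO and UHRF1 siRNA changes differed by 0.39, which did not pass (adjusted p = 0.0855) but was called without UHRF1 siRNA control replicate 3 (0.50, adjusted p = 0.0239) and with limma on log2(CPM + 1) (0.43, adjusted p = 0.0241). IDO1 overlaps 3 annotated RNA genes, of which 2 are antisense.

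IDO1 acts beside other genes that consume tryptophan or handle its products. Of those tested, 7 of 12 were higher and 3 lower in the knockout line, 9 and 2 of 13 with the SMYD3 siRNA, 4 and 0 of 13 with the ASO, and 5 and 3 of 11 with the UHRF1 siRNA. Among all genes tested, 84.6%, 48.6%, 21.7% and 64.7% were called in the same order of comparisons. IL4I1, a secreted oxidase of tryptophan and other amino acids, was higher in all 4 comparisons. It rose by 3.29 ± 0.19 in the knockout line, 1.18 ± 0.13 with the SMYD3 siRNA, 0.78 ± 0.17 with the ASO and 2.03 ± 0.06 with the UHRF1 siRNA. KMO, which hydroxylates kynurenine, rose by 1.19 ± 0.09, 0.40 ± 0.09, 1.63 ± 0.16 and 2.05 ± 0.09 in the same order. WARS1, the tryptophan tRNA ligase and a known interferon target, rose by 0.77 ± 0.03, 0.45 ± 0.08, 0.87 ± 0.06 and 1.85 ± 0.05. These 3 genes were called with the SMYD3 siRNA, and IDO1 was not. KYNU, the next enzyme on the kynurenine branch, fell by 1.21 ± 0.07 in the knockout line, and rose by 0.76 ± 0.08 with the SMYD3 siRNA and by 1.07 ± 0.05 with the UHRF1 siRNA. The genes most like IDO1 over the 22 libraries were PARP12, TMEM140, IFIT1, KCTD1 and TRIM21, with r from 0.905 to 0.927, lower than the best values for CD274 and NT5E.

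Set against each other, the SMYD3 siRNA and the ASO gave different changes for 6 of the 10 genes, where 32% of 21106 genes differed: IDO1, LGALS9, NT5E, PVR and TNFRSF14 were lower with the siRNA, and CD47 was higher by 0.31 (adjusted p = 0.0205, edgeR contrast), a call lost, at differences of 0.31, 0.30, 0.28 and 0.26, without ASO replicate 1, ASO replicate 2, PBS replicate 1 or control siRNA replicate 2. The SMYD3 siRNA differed from the UHRF1 siRNA for 5 genes, where 48.9% of all genes did, and the ASO differed from the UHRF1 siRNA for 5, where 45.5% did. Of the latter, PDCD1LG2 (0.41, adjusted p = 0.0357) and PVR (0.27, adjusted p = 0.0477) lost the call with upper quartile factors (adjusted p = 0.0609 and 0.0893) and without PBS replicate 1 (0.28 and 0.17), among other single libraries. The knockout line differed from the SMYD3 siRNA for all 10 genes (77.2% of 13823 genes did), from the ASO for 9, all but CD47 (74% did), and from the UHRF1 siRNA for all 10 (81% did). With upper quartile factors the LGALS9 difference between the knockout line and the ASO lost its call (0.30, adjusted p = 0.0507, limma contrast). CD276 and NECTIN2 did not pass between any 2 of the 3 knockdowns with all libraries. Between the SMYD3 siRNA and the UHRF1 siRNA, CD276 went from 0.16 to a called 0.28 without SMYD3 siRNA replicate 1 (adjusted p = 0.00591), and NECTIN2 from -0.16 to a called -0.27 without SMYD3 siRNA replicate 2 (adjusted p = 0.0413). The siRNA minus ASO interval for CD276 ran from -0.30 to 0.20 and that for NECTIN2 from -0.40 to 0.14.

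The 4 control groups, all under interferon-β, held the 10 genes at different levels, compared here between genes as RPKM, plain CPM divided by the exon length in kilobases. In parental cells NECTIN2 was highest at 32.6 ± 1.49 (SD, n = 3), followed by CD47 at 16.4 ± 0.706, LGALS9 at 11.5 ± 1.27, CD276 at 10.5 ± 0.329, PVR at 8.96 ± 0.766 and NT5E at 7.26 ± 0.947. TNFRSF14 at 2.83 ± 0.156, CD274 at 2.65 ± 0.256, IDO1 at 0.682 ± 0.102 and PDCD1LG2 at 0.410 ± 0.0613 stood below. The libraries overlapped between the neighbours LGALS9 and CD276, PVR and NT5E, and TNFRSF14 and CD274, and were separate between the other neighbours. PVR has 3519 bases in the annotation used here and 6098 by its deposited length, with which NT5E stood above PVR. In the knockout line NT5E moved to second place at 43.1 ± 1.63, and CD274, at 18.8 ± 1.08, stood above CD47, at 17.1 ± 0.505. The tables were made separately, and whether their reads were counted alike is not known, so levels across them are given with no test. PDCD1LG2 ranged from 0.410 in parental cells to 19.5 in the controls of the UHRF1 siRNA table, 47.4-fold, NT5E from 7.26 to 255 over the same groups, 35.1-fold, and IDO1 from 0.682 in parental cells to 12.3 in the controls of the SMYD3 siRNA table, 18.04-fold. CD47 varied by 2.72-fold and TNFRSF14 by 3.06-fold.

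**Figure D5:**
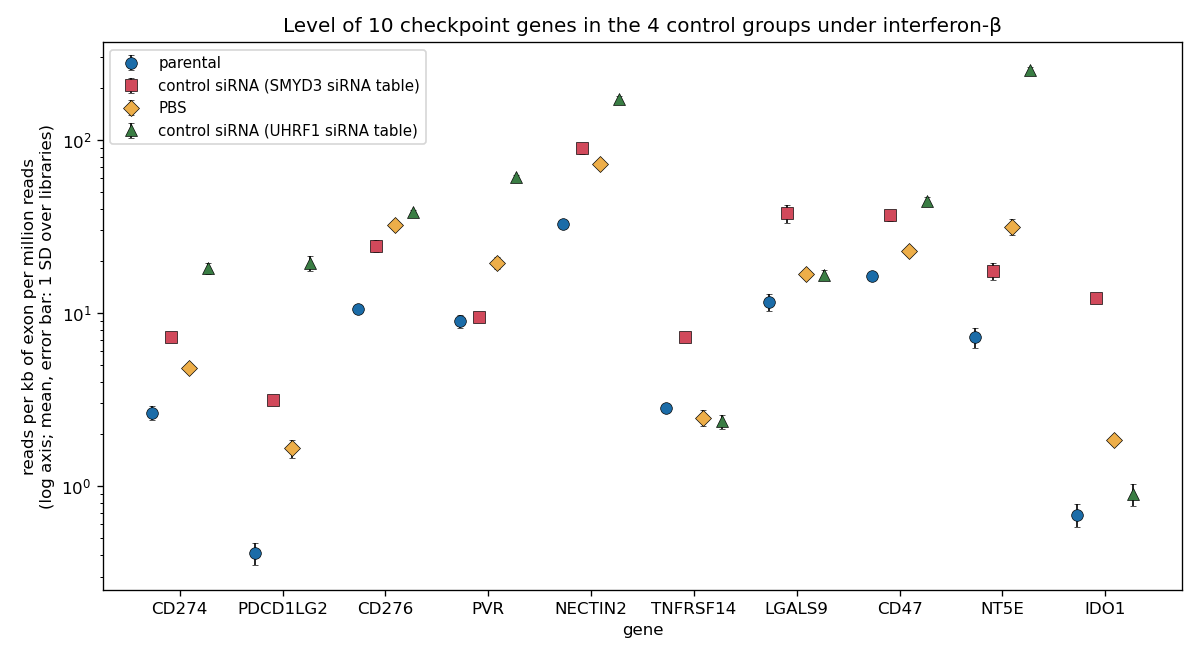
Level of the 10 genes in the 4 control groups as RPKM (plain CPM per kb of exon), on a log axis, with the mean and 1 SD over libraries. PDCD1LG2 spreads from 0.410 to 19.5 and NT5E from 7.26 to 255, whereas CD47 stays between 16.4 and 44.6.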

How the data were processed

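Gene-level RNA values of 22 libraries in 8 groups were used. Per the submitters' processing notes the build was hg38 and the tools included bcl2fastq and Bowtie. How reads were counted, with which strand setting and against which annotation, is not given in the sources used here. Read counts were deposited by the authors for the 3 knockdown comparisons. For the knockout the deposited values are a signal, which was found to be counts over a single factor per library: 100% of the values came out as whole reads within 0.01. Depth per library was 24783605 to 47702859 reads in the knockout table, 32441991 to 54121262 (SMYD3 siRNA), 30792923 to 32045158 (ASO) and 57588142 to 62921144 (UHRF1 siRNA). Lines without a symbol in the SMYD3 siRNA table took 0.849% to 0.917% of its reads, and Ensembl identifiers gave names where they could.

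Counts were tested with edgeR 4.0.16 (filterByExpr, TMM factors, robust quasi-likelihood F-test) and the knockout values with limma 3.58.1 (trend, robust) on log2(value + 1), for genes at 10 or more in at least 3 libraries, all two-sided with Benjamini-Hochberg adjustment (R 4.3.3). Differences between comparisons were contrasts in edgeR over the 3 count tables, or in limma on log2(CPM + 1) of all 22 libraries for pairs with the knockout. edgeR on the recovered reads, DESeq2 1.42.0, limma on log2(CPM + 1), upper quartile factors, no filter, a replicate block and leaving out each library were the alternatives. Levels per length used exon unions of GENCODE 29 and plain CPM. Member values are TMM-scaled CPM, a choice made after plain CPM ratios were seen to differ from the fitted folds. The fits were tested on simulated data.

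The 10 genes, the lists and the motifs were chosen with earlier results of these data known. Named genes are the 10, SMYD3 and UHRF1, up to 3 called genes per list and comparison by absolute log2 fold change (then given in any comparison), KRT5, KRT14 and the 2 galectin copies (named after their values were seen), genes near CD274, and the 5 most alike genes by Pearson correlation for CD274, IDO1 and NT5E. The study calls its replicates biological, and the labels do not tie them to separate cultures or days, so p-values measure the spread between these libraries. Same-numbered libraries deviated together with r from -0.08 to 0.29 in the knockout table and -0.13 to 0.41 with the SMYD3 siRNA. Other-numbered ones had r from -0.33 to 0.27 and from -0.52 to 0.39. With the UHRF1 siRNA these ranges were -0.09 to 0.09 and -0.11 to 0.15. In the ASO table, which has 2 pairs, r was 0.443 for the same number and -0.443 for the other. In the ASO and SMYD3 siRNA tables the library codes in the titles run consecutively from the control to the treated library of each replicate. The labels give no shared day or batch, so numbers were not taken as pairs, and the replicate block is an alternative. Intervals cover 95%.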

Additional observations from a re-analysis of the deposited data

Results flagged for a closer look

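For the 3 ways of depleting SMYD3, the same gene often gave different fold changes, and 25 such differences passed the test. With the siRNA minus the ASO (edgeR contrast, log2) they were -1.58 for IDO1, -1.18 for LGALS9, -2.00 for NT5E, -0.58 for PVR, -0.57 for TNFRSF14 and 0.31 for CD47. For the knockout line minus the siRNA (limma contrast on log2(CPM + 1)) they were 2.09 for CD274, 3.18 for PDCD1LG2, 0.76 for CD276, 0.52 for IDO1, 1.66 for LGALS9, 4.10 for NT5E, 2.32 for PVR, 0.69 for NECTIN2, -0.73 for TNFRSF14 and -0.30 for CD47. For the knockout line minus the ASO they were 2.08 for CD274, 2.88 for PDCD1LG2, 0.71 for CD276, -0.89 for IDO1, 0.49 for LGALS9, 2.14 for NT5E, 1.76 for PVR, 0.56 for NECTIN2 and -1.27 for TNFRSF14. Over all genes tested, 32% differed for the siRNA minus the ASO. For the knockout line 77.2% differed from the siRNA and 74% from the ASO, so a difference with the knockout line was the usual result. A single line, siRNA or ASO stands for each way of depletion, each with its own controls. So reagent, experiment and mode of depletion cannot be told apart. Groups of 2 or 3 libraries were too small to test for a library that stands apart.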

How the results depend on the processing

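Of 450 log2 fold changes of the 10 genes recomputed under an alternative, 432 kept their direction and their side of the threshold, as did 780 of 840 differences between comparisons. With upper quartile factors CD47 (-0.024) and LGALSL (-0.021) turned sign in the knockout line, as did LGALS9 with the SMYD3 siRNA (-0.010). The knockout minus ASO difference of CD47 became -0.18 with these factors. That of LGALS9 fell to 0.30 and lost its call (adjusted p = 0.0507, limma contrast). The PDCD1LG2 difference of the SMYD3 siRNA minus the UHRF1 siRNA, 0.01 in the report's fit, was -0.042 with upper quartile factors and -0.042 with limma on log2(CPM + 1). The cause was not tested.

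The ASO comparison, with 2 libraries a group, moved most in its counts: 2068 genes higher and 1880 lower became 1323 and 969 with DESeq2. With the replicate block they became 3477 and 3296, and CD47 was called (0.15, adjusted p = 0.00108). Replicate numbers share no stated day or batch. In the ASO table the same-numbered libraries did deviate together (r = 0.443), and in the other tables not all did. With the block the knockout line again had 9 of the 10 genes called higher and 1 lower. The block also brought under the threshold the differences of PDCD1LG2 (-0.41, adjusted p = 0.0453) for the SMYD3 siRNA minus the ASO, LGALS9 (-0.23, adjusted p = 0.0164) for the SMYD3 siRNA minus the UHRF1 siRNA and TNFRSF14 (-0.34, adjusted p = 0.0227) for the ASO minus the UHRF1 siRNA, and changed no other call of the 10 genes. For the ASO minus the UHRF1 siRNA, members lower went from 0 to 1 with the replicate block, with limma and with upper quartile factors, and members higher from 5 to 3 with upper quartile factors.

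Without 1 library at a time, the values that changed sign ranged from -0.16 to 0.041 for CD276 and from -0.080 to 0.14 for LGALS9 with the SMYD3 siRNA, and from -0.077 to 0.0063 for CD276 and from -0.043 to 0.18 for PVR with the ASO. Differences that did so ranged from -0.093 to 0.030 (CD274) and from -0.13 to 0.069 (CD276) for the SMYD3 siRNA minus the ASO, from -0.077 to 0.095 (PDCD1LG2) for the SMYD3 siRNA minus the UHRF1 siRNA, and from -0.068 to 0.034 (CD47) for the knockout minus the ASO. None of these was called. Members called higher ranged from 0 to 1 for the SMYD3 siRNA minus the ASO and from 3 to 5 for the ASO minus the UHRF1 siRNA, where members lower ranged from 0 to 1. Members called lower for the SMYD3 siRNA minus the UHRF1 siRNA ranged from 3 to 5, the 5 without SMYD3 siRNA replicate 2. Where this left 1 library in an ASO or PBS group, that library was assumed to vary like the other groups. Depth limits the low genes: PDCD1LG2 and IDO1 in parental cells rest on the fewest reads per library of the 10.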
